A study of Mus musculus with 2 samples.

Results

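The genes described here make, sense, move and export cholesterol. The 32 genes were chosen by name, by a rule that used none of their values, but with earlier results of these data known. Of the 32, 29 had a probe set given to exactly 1 gene, out of 19935 genes so measured. Of these, 17 were enzymes of cholesterol synthesis, 5 were sterol sensing genes, 2 moved sterol within the cell, and 5 belonged to the liver X receptor (LXR) and sterol efflux group. The synthesis enzyme Acat2, the storage enzyme Soat1 and the receptor Nr1h2 were not analysed here. The cells were dendritic cells (DCs), the antigen-presenting white blood cells, sorted by flow cytometry from spleens of C57BL/6 mice (wild type, 8 weeks old) and kept in culture. One group received vehicle and the other IL-27, a cytokine of the IL-12 family, for a time the labels write as "ON", and no allele or agent other than these is named. Each group was read on 1 array, and the number of mice or cultures behind it is not given in the labels. No difference below therefore has a replicate check, and no test, p-value or standard deviation is given.

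A cell makes cholesterol from acetyl-CoA through mevalonate, isoprenoid units, squalene and lanosterol. When sterol in the endoplasmic reticulum is scarce, the escort protein Scap carries the transcription factor SREBP2 to the Golgi, where it is cut and freed to switch on the synthesis and uptake genes. Insig proteins hold Scap back when sterol is plentiful. Excess sterol is turned into oxysterols, which activate the LXR receptors and with them the efflux transporters Abca1 and Abcg1, the carrier protein Apoe and Mylip, which marks lipoprotein receptors for destruction. In macrophages and DCs this balance is known to affect inflammatory signalling.

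Promoters were looked at first because SREBP2 is known to act with the factors NF-Y and Sp1 on short upstream boxes. Sequences from RefSeq (GRCm38.p6) covered 250 bases before and 50 bases after each gene start and were found for 26 of the 32 genes. None was found for Fdps, Fdft1, Sqle, Stard4, Npc1 or Abcg1, so these were not searched. Each motif was searched on both strands, and any overlap between motifs was allowed. The NF-Y box CCAAT was present for 14 of the 15 synthesis genes with a promoter. Among all genes with a promoter the share was 41.1%, and 42.3% among protein-coding ones. Counted by promoter, 14 of 18 held the box, compared with 37.4% of all 32851 promoters and 38.2% of those of protein-coding genes. In the LXR and efflux group, 1 of 8 promoters held it, that of Mylip. The Sp1 box GGGCGG was present in 15 of the 18 synthesis promoters, against 35.7% of all and 46.2% of protein-coding ones, and in 2 of 8 of the LXR and efflux group. The sterol regulatory element spelled TCACNCCAC was present in the promoter of Hmgcs1 and of no other of the 26 genes, and in 1.24% of all promoters. A receptor element of the form GGTTACNNNNGGTCA was written down after these promoters had been seen. It was present for Abca1 and Srebf1, both known LXR targets, and for no other of the 26 genes. Because the form was written with their promoters in view, those matches were fixed in advance. The 0.0365% of all promoters that held it is therefore no fair comparison. These matches are descriptions of letters, not of binding.

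The stretches below end at the base before the gene start and show 4 synthesis genes that differed in opposite directions on the arrays, then the pair with the receptor element. Capitals mark the sterol regulatory element of Hmgcs1 (from -137 to -129), every CCAAT or its reverse complement ATTGG, and the reverse complement of the receptor element in Abca1 (from -67 to -53) and Srebf1 (from -182 to -168, at the last of its 3 listed starts).
Hmgcs1: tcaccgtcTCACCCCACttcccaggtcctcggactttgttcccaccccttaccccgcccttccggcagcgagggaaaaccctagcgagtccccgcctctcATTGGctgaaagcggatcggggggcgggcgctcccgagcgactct
Idi1: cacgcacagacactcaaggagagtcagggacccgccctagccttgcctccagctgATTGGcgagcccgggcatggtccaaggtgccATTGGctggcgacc
Msmo1: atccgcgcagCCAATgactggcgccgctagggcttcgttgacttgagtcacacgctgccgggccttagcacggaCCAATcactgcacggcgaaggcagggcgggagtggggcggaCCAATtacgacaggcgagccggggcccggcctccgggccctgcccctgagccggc
Nsdhl: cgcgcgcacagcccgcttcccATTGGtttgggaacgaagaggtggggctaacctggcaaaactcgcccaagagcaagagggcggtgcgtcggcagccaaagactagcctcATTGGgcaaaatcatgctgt
Abca1: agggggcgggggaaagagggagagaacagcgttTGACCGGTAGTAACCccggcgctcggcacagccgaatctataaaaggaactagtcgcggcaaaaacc
Srebf1: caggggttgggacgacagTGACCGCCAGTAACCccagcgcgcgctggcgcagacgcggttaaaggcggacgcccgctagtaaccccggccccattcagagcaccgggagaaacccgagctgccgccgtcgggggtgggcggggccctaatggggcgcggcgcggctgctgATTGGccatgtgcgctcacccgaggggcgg
Idi1 and Msmo1, which were higher on the IL-27 array, and Nsdhl, which was lower, all carried the NF-Y box more than once. The only synthesis gene with a promoter that lacked the box was Acat2, which was not analysed on the arrays. Presence of the box therefore could not separate directions among the measured enzymes with a promoter, and nothing is concluded from it. Fdps, Fdft1 and Sqle were measured but had no promoter to search.

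The deposited values are probe set intensities on a linear scale, and differences are of log2 intensity, IL-27 minus vehicle. Levels of different genes are not compared, because each probe set has its own brightness. A gene was called higher or lower where the difference was at least 1 (2-fold) and the brighter array reached an intensity of 96.2, the median over both arrays and every probe set (the level minimum). By this rule 0.848% of all genes were higher and 7.36% lower, or 1.52% and 13.2% of the 11140 genes over that level. Higher genes made up 10.3% of those past the rule as deposited, 20.6% after quantile normalization and 26.2% with the level trend removed. The difference depended on level: the median difference of the 1000 genes nearest in level ranged from -0.57 to 0.23 across the 29 sterol genes, so each gene is also set beside that local median. Intensities of 1027 olfactory receptor genes, which DCs are not known to use, served as a background, with 95th percentiles of 77.3 (vehicle) and 129 (IL-27), called the olfactory limits. All 12 DC markers measured, among them Itgax, Flt3, H2-Aa and Cd74, lay above these limits on both arrays. So did 11 of 14 macrophage and monocyte markers, and the other 3 (Cd163, Fcgr1 and Marco) did on the vehicle array.

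Among all 29 sterol genes, 2 were higher (Idi1 and Msmo1), 2 were lower (Nsdhl and Nr1h3), 24 were neither and 1, Tm7sf2, lay under the level minimum. The shares, 2 of 28 over the level minimum in each direction, stand beside 1.52% higher and 13.2% lower among all genes over it. After quantile normalization 2 were higher and 0 lower (1.18% and 4.55% of all genes), and with the level trend removed 3 were higher (Hmgcs1, Idi1 and Msmo1) and 0 lower (1.32% and 3.73%). The median difference was -0.19, compared with -0.34 over all genes at that level and 0.042 over all 19935 genes. Enzymes of synthesis lay above the genes of like level more often than not, and the LXR and efflux genes mostly below them. The plot of intensities shows both arrays for each gene.

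**Figure D1:**
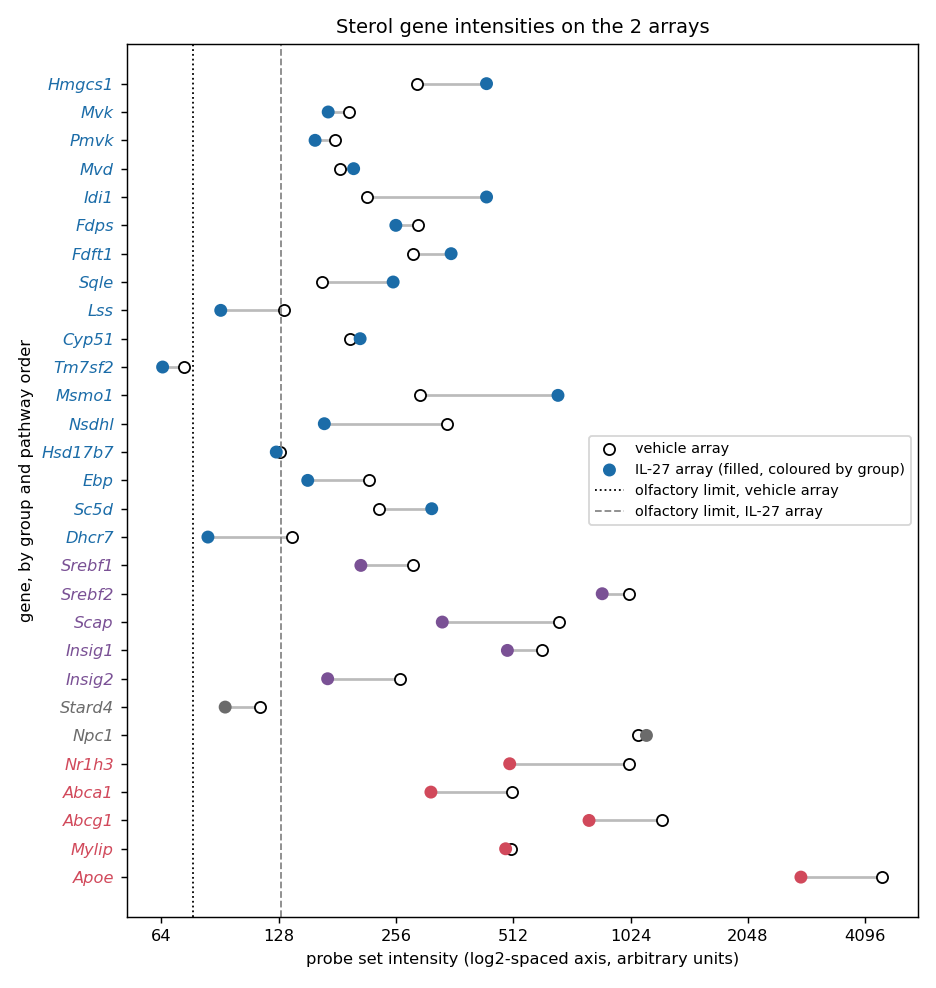
Probe set intensity (log2-spaced axis) of the 29 measured sterol genes on the vehicle array (open circles) and the IL-27 array (filled circles, coloured by group), 1 array each, with the 95th percentile of olfactory receptor genes on each array as vertical lines. Idi1 and Msmo1 moved furthest to the right, from 215 to 437 and from 296 to 667, and Nsdhl, Scap and Nr1h3 furthest to the left on this scale.

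Enzymes of the early, mevalonate and isoprenoid steps had differences from -0.19 to 1.02, and Idi1 passed the size rule. Hmgcs1 (probe set 10412466), which makes HMG-CoA from acetyl-CoA units, read 289.9 with vehicle and 437 after IL-27, a difference of 0.59 (1.51-fold higher). Idi1 (probe set 10482762), which isomerises isopentenyl diphosphate so that isoprenoid chains can be built, had 215 and 437, which is 1.02, or 2.03-fold higher. Its other probe set had 211 and 398, a difference of 0.92, so the 2-fold call rests on the brighter of them. Both genes thus lay higher with IL-27, while the genes nearest to each in level had a median of -0.55 and -0.54. Mvk and Pmvk, the kinases that phosphorylate mevalonate in turn, had 194 and 172, and 179 and 159. Mvd, which decarboxylates the product, had 184 and 199. Fdps, which makes farnesyl diphosphate, had 291 and 256. These 4 enzymes differed by between -0.19 and 0.12, and each lay above its local median by between 0.28 and 0.61. With the level trend removed the differences of Mvk, Pmvk and Fdps turned from below 0 to 0.13, 0.090 and 0.24.

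The steps from farnesyl diphosphate to lanosterol were split between the first pair of enzymes and the last. Fdft1 (probe set 10420730), the squalene synthase that commits isoprenoids to sterols, had 284 with vehicle and 355 with IL-27, a difference of 0.32, and 0.51 by its other probe set (241 and 343). Sqle (probe set 10424349), squalene epoxidase, had 165 and 252, a difference of 0.61 (1.52-fold higher). Lss, which folds squalene epoxide into lanosterol, had 132 and 90.9, a difference of -0.54, and its IL-27 value lay within the olfactory range. Fdft1 and Sqle exceeded their local medians by 0.86 and 1.12, whereas Lss stood at -0.53 from its own.

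Enzymes that convert lanosterol to cholesterol went both ways, and neighbouring steps of the removal of the C4 methyl groups had opposite differences. Msmo1 (probe set 10578916), the oxidase that begins this removal, read 296 with vehicle and 667 after IL-27, or 2.26-fold higher (1.17). Nsdhl (probe set 10600082), the decarboxylating dehydrogenase that follows it, had 347 and 168, which is -1.05, or 2.07-fold lower. Hsd17b7, the reductase that completes the cycle, had 129 and 126, a difference of -0.032, with the IL-27 value in the olfactory range. The 3 genes therefore spanned both directions of the size rule. Nsdhl, which stood at -0.49 from its local median, was at -0.76 after quantile normalization and -0.64 with the level trend removed, short of 2-fold, and at -0.98 with an offset of 16. Msmo1 was at 1.46 and 1.59 under the first pair of settings and 1.13 under the last.

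None of the other late enzymes passed the size rule. Cyp51, which demethylates lanosterol, had 195 and 207, a difference of 0.085 that became -0.013 with median centring and 0.44 with the level trend removed. Ebp, an isomerase of the sterol ring, had 219 and 152 (-0.53), close to its local median of -0.48. Sc5d, the desaturase that acts next, had 232 and 316 (0.45), above the 90th percentile of its nearest genes. Dhcr7, which reduces the last double bond in one branch of the pathway, had 138 and 84.2 (-0.72), with the IL-27 value in the olfactory range, and stood at -0.70 from its local median. Tm7sf2, a sterol reductase, read 73.0 and 64.5, under the olfactory limit of each array. Consecutive enzymes at the end of the pathway therefore differed in sign, Sc5d above 0 and Ebp and Dhcr7 below it.

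Taking the 17 enzymes as a group, 8 had a difference above 0 and 9 below it, where 53.4% of all genes were above 0 and 46.6% below it, and 29.1% of genes over the level minimum were above 0. Idi1 and Msmo1 were higher and Nsdhl lower by the size rule. The enzymes ranged from -1.05 to 1.17 with a median of -0.032, and the local medians beside them had a median of -0.51. Above their local median lay 12 of the 17. Hmgcs1, Idi1, Fdft1, Sqle, Msmo1 and Sc5d lay above the 90th percentile of the 1000 genes nearest to them, as did 9.82% of all genes, and no enzyme lay below the 10th percentile, as 10.1% of all genes did. By stage the median difference was -0.027 over 6 mevalonate and isoprenoid enzymes, 0.32 over the 3 squalene to lanosterol enzymes and -0.11 over the 8 that follow. The 4 enzymes with an IL-27 value in the olfactory range, Lss, Tm7sf2, Hsd17b7 and Dhcr7, were all below 0 as deposited, and the enzymes above 0 were all clear of it. A low IL-27 value both places a gene in that range and lowers its difference, so this match is partly built in. The group's median turned to 0.13 after quantile normalization and to 0.24 with the level trend removed.

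**Figure D2:**
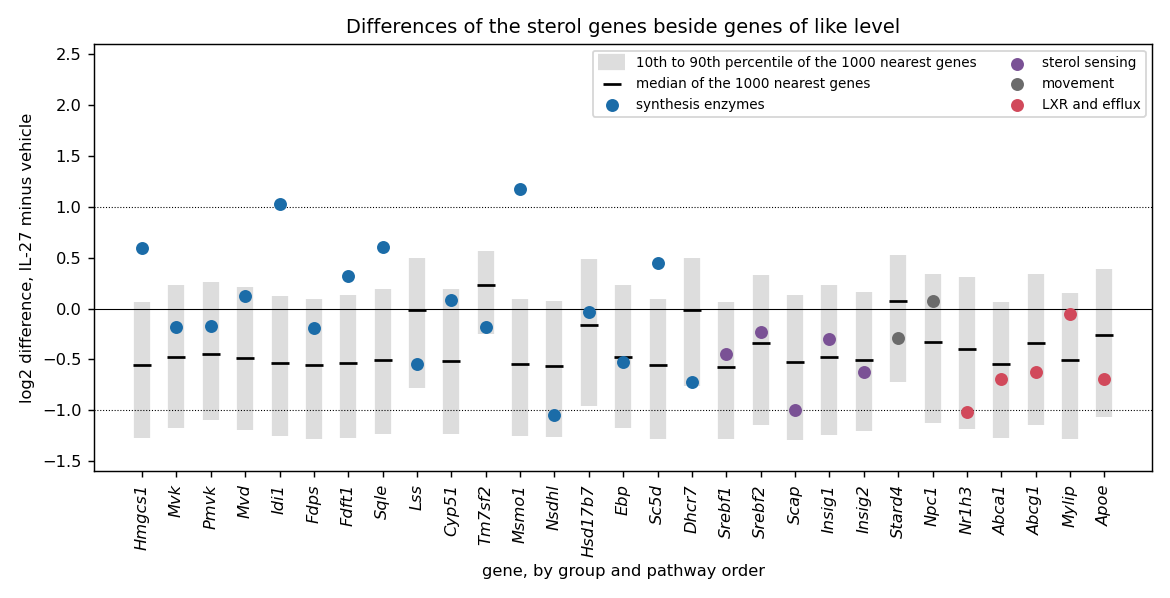
Log2 difference (IL-27 minus vehicle, 1 array each) of each measured sterol gene in pathway order, coloured by group. Grey bars show the 10th to 90th percentile and black dashes the median of the 1000 genes nearest in mean level, and dotted lines mark 2-fold. Idi1 at 1.02 and Msmo1 at 1.17 lie above the upper dotted line, and 6 synthesis enzymes lie above their grey bar.

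None of the 5 sterol sensing genes passed the size rule, and all had differences below 0, as did 70.9% of all genes over the level minimum. Scap (probe set 10589511), the escort of SREBP, had 671 with vehicle and 337 with IL-27, a difference of -0.99 (1.99-fold lower), just short of the rule and past it with median centring (-1.09). It was -0.58 once the level trend was removed. Srebf2 (probe set 10425695), which encodes SREBP2, had 1014 and 866 (-0.23), close to its local median of -0.34. Srebf1, which encodes the SREBP form that drives fatty acid genes and is itself an LXR target, had 284 and 208 (-0.45). Insig1, an SREBP target, had 607 and 495 (-0.30), and Insig2, its paralog, had 262 and 171 (-0.62). All 5 lay inside the 10th to 90th percentile of their nearest genes, with a group median of -0.45 against a median of -0.51 for those genes. The differences of Srebf2 and Insig1 turned to 0.067 and 0.092 with the level trend removed, and Insig1 was at 0.023 after quantile normalization.

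The movement genes differed little. Npc1, the lysosomal membrane protein that releases cholesterol taken up with lipoproteins, had 1068 with vehicle and 1125 with IL-27, a difference of 0.075 that became -0.023 with median centring. Stard4, a soluble carrier of sterol between membranes and an SREBP2 target, had 114 and 93.3 (-0.29), the latter within the olfactory range.

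LXR and efflux genes had differences from -1.02 to -0.050, and Nr1h3 passed the size rule. Nr1h3 (probe set 10484987), which encodes the receptor LXR alpha, read 1013 with vehicle and 501 after IL-27, or 2.02-fold lower (-1.02). Apoe (probe set 10560624), the apolipoprotein that accepts exported cholesterol, had 4539 and 2803 (-0.70, 1.62-fold lower). Abca1 (probe set 10512949), the transporter that loads apolipoproteins with cholesterol, had 508 and 315 (-0.69, 1.61-fold). These 3 genes were lower with IL-27, and all 5 measured genes of the group lay inside the 10th to 90th percentile of their nearest genes. Abcg1 (probe set 10443730), the transporter that passes cholesterol to mature lipoprotein particles, had 1231 and 801 (-0.62, 1.54-fold). Mylip (probe set 10404874), the ubiquitin ligase, had 507 and 489 (-0.050), and 0.35 with the level trend removed. Mylip, also an LXR target, thus read nearly alike on both arrays, unlike the transporters. The call of Nr1h3 was lost after quantile normalization (-0.77), with the level trend removed (-0.67) and with an offset of 16 (-0.99).

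All 5 measured LXR and efflux genes had differences below 0, as did 70.9% of all genes over the level minimum. Their median was -0.69, the median of their local medians -0.40, and 4 of the 5 lay below their own local median, the exception being Mylip. Markers of macrophages and monocytes, cells that also carry Nr1h3, Abca1 and Apoe, were lower alongside. Of 14 measured, 12 were lower by the size rule, against 13.2% of all genes over the level minimum, with a median of -1.61. Their intensities summed to 31114 with vehicle and 10852 with IL-27, a ratio of 2.87. That ratio was 1.23 over all genes and 1.29 over the DC markers, and brighter probe sets weigh more in such sums. None of the 14 was under the olfactory limit of both arrays, and Cd163, Fcgr1 and Marco were under that of the IL-27 array. DC markers had a median of -0.72, with 4 of 12 lower. The part of these markers in the LXR result was not tested, and in RNA from bulk cells fewer cells of a type and less RNA per cell cannot be told apart. Of the remaining marker lists, B cells had a median of -0.73 over 5 genes, T cells 0.053 over 4, NK cells 0.12 over 4 and neutrophils 0.32 over 4. At or below the olfactory limit of both arrays were 2 of the 4 T cell, 3 of the 4 NK cell and 3 of the 4 neutrophil markers, so these medians carry little about those cells. The red cell gene Alas2 lay under the level minimum.

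The comparison of synthesis with efflux gave a difference of medians of 0.66 on the log2 scale, with the synthesis enzymes at -0.032 and the LXR and efflux genes at -0.69. Of the 17 enzymes, 15 lay above the LXR and efflux median and 9 above Mylip, whose difference of -0.050 was the nearest to 0 in that group. Relative to the genes of like level, the groups' medians were 0.36 and -0.28. The difference of medians was 0.55 after quantile normalization and 0.58 with the level trend removed. With the SREBP2 targets Insig1, Stard4, Srebf2 and Npc1 counted with the enzymes it was 0.52. The ranges of the groups overlapped: Nsdhl at -1.05 lay below every LXR and efflux gene. With 1 array a group, the precision of these values is unknown.

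**Figure D3:**
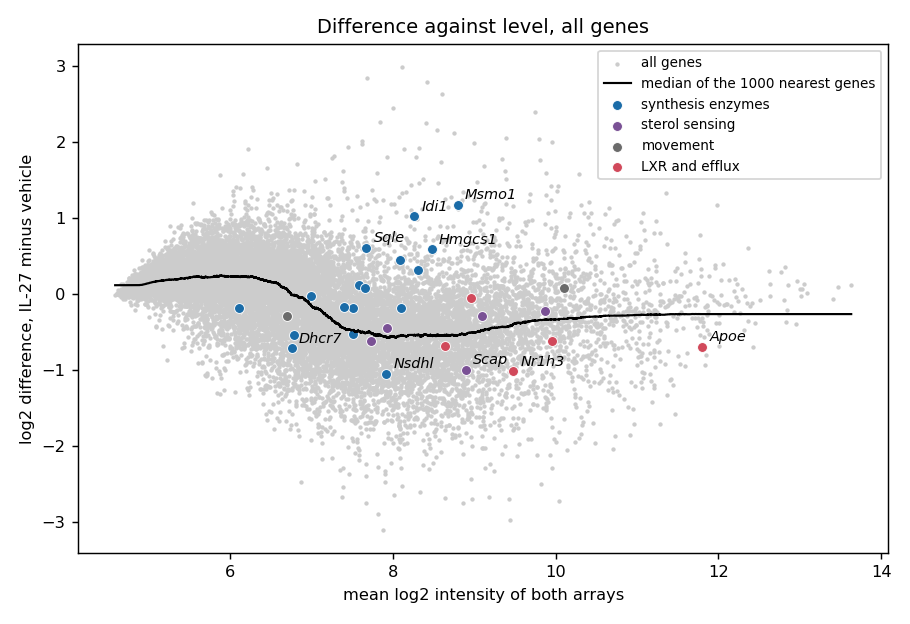
Log2 difference (IL-27 minus vehicle) against mean log2 intensity for 19935 genes (grey), with the median of the 1000 genes nearest in level (black line) and the sterol genes coloured by group. Hmgcs1, Idi1, Sqle and Msmo1 lie above the line by between 1.12 and 1.71, and Nr1h3 and Apoe lie at -0.62 and -0.43 from it.

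Other genes of lipid metabolism were read from 5 lists with 55 genes, of which 49 were measured and 44 lay over the level minimum. Of these, 0 were higher and 6 were lower by the size rule, and 42 of the 49 differences were below 0, with a median of -0.59. Below 0 were 46.6% of all genes and 70.9% of those over the level minimum. The local medians of the 49 genes had a median of -0.48, and 15 of the 49 lay above their own. With the level trend removed the median difference was -0.22, and 14 differences were above 0. The calls stand beside 1.52% higher and 13.2% lower among all genes over the level minimum. In the list of oxysterol enzymes and LXR partners and targets, 2 of the 7 above that level were called lower, and the median over 9 measured genes was -0.76. Their local medians had a median of -0.53, and 1 of the 9 lay above its own. Rxra, the retinoid X receptor that pairs with LXR on DNA, had 829 with vehicle and 229 with IL-27 (-1.86, 3.62-fold lower). Cyp27a1, which makes the LXR ligand hydroxycholesterol, had 1570 and 587 (-1.42). The LXR targets Pltp and Smpdl3a had -0.97 and -0.77, short of the rule. Rxra and Cyp27a1 kept a 2-fold difference with the level trend removed, at -1.43 and -1.13. The part of the macrophage and monocyte markers, with their median of -1.61, in these values was not tested.

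In the uptake list, 2 of the 12 above that level were called lower and none higher, where 13.2% and 1.52% of all genes above it were. The list's median over 13 genes was -0.38, against -0.34 over all genes above that level, so the list as a whole was near the background. Scarb1, the scavenger receptor for high-density lipoprotein, had 1146 and 369 (-1.64), and Lrp1, an endocytic receptor for Apoe-bearing particles, had 1538 and 588 (-1.39). Both stayed past 2-fold with the level trend removed (-1.28 and -1.09). The lysosomal sterol proteins Stard3 and Scarb2 had -0.84 and -0.73. Macrophage and monocyte markers had a median of -1.61 beside these, and their part in the values of Scarb1 and Lrp1 was not tested.

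Fatty acid synthesis genes, the main targets of SREBP1, had a median of -0.58 over 14 genes, with 1 of 13 above that level called lower. That gene was Scd2, a fatty acid desaturase, with 704 and 281 (-1.33, and -0.91 with the level trend removed). The local medians of the 14 genes had a median of -0.51, and 6 of the 14 lay above their own. The list as a whole was thus near the genes of like level. Elovl6, Acss2 and Acly, which elongate fatty acids or supply their acetyl-CoA, had -0.96, -0.89 and -0.78, and the IL-27 values of Elovl6 and Acss2 lay within the olfactory range. The related desaturase Scd1 had 324 and 426 (0.40), above the 90th percentile of its nearest genes. The SREBP processing and turnover list had a median of -0.72 over 6 genes, beside a median of -0.48 for their local medians. Erlin2, an endoplasmic reticulum protein, was lower (798 and 357, -1.16), and at -0.77 with the level trend removed. Mbtps1, the protease that makes the first cut in SREBP, had 563 and 314 (-0.84), Rnf139 -0.78 and Tmem97, an SREBP2 target, -0.65. The further sterol and isoprenoid enzymes had a median of -0.48 over 7 genes with none of 6 past the rule. Their local medians had a median of -0.45, so this list too was near the genes of like level. Dhdds, Coq2, Pggt1b and Ggps1, which use isoprenoid units for products other than cholesterol, had -0.80, -0.79, -0.59 and -0.48.

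**Figure D4:**
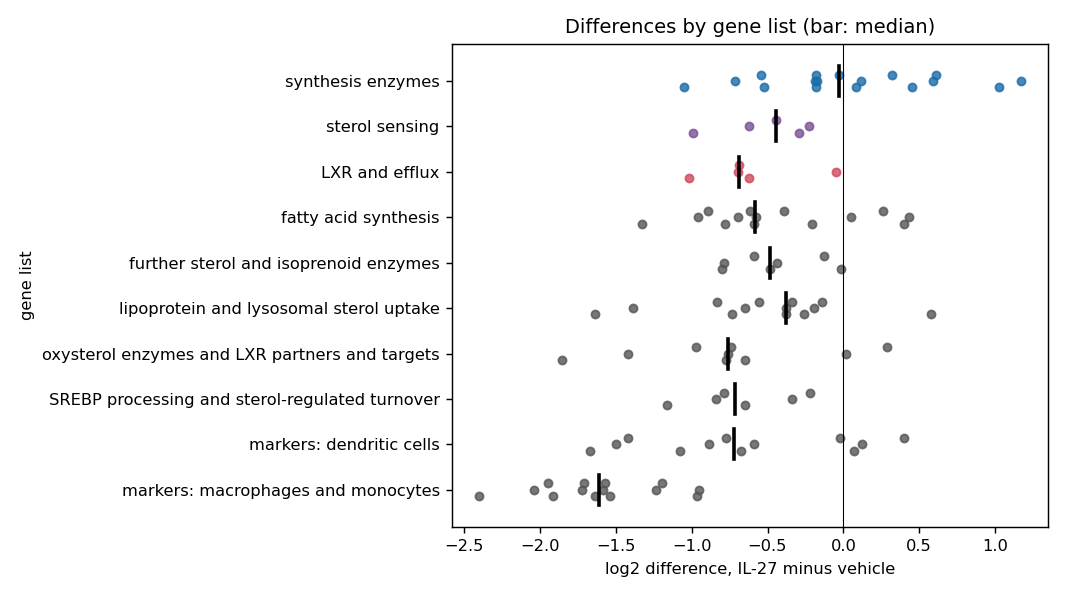
Log2 difference (IL-27 minus vehicle, 1 array each) of each measured gene (points) in the sterol groups, 5 lists of other lipid genes and the DC and macrophage marker lists, with the list median as a black bar. The synthesis enzymes have a median of -0.032, the LXR and efflux genes -0.69 and the macrophage and monocyte markers -1.61.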

How the data were processed

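RNA of 2 DC samples, 1 per group, was read on 1 array each. Per the labels, the array targets were labelled with biotin using Affymetrix's WT Terminal Labeling Kit. The deposited table held 1 linear intensity for each of 28815 probe sets and array, and the build was mm8, per the submitters' processing notes. Not given in the sources used here were the authors' background correction, summarization and normalization. Array medians were 92.4 (vehicle) and 98.9 (IL-27), and no detection call was used. GEO's platform annotation gave 21780 probe sets 1 gene and 1605 several, and 5430 are unnamed here. The gene IDs of the 29 members matched RefSeq. The probe set with the highest mean log2 intensity stood for a gene.

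Log2 was taken without pseudocount. No coordinates are printed, since the annotation is of another build. The members and lists, and the size rule, were chosen with earlier results of these data known. Named genes were all members and, per other list, those past the size rule and up to 4 further from 0 than the rest among genes over the level minimum. Scd1 was added after its value was seen. Alternatives were quantile normalization, median centring, lowess removal of the level trend (span 0.3, statsmodels 0.14.6), a 1.5-fold rule, an offset of 16, other memberships, the mean of probe sets, means and other level filters. The trend removal was tested on simulated data, with differences larger than those of the sterol genes and less scatter than the real arrays. That test therefore cannot show how well differences of the size seen here are recovered.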

Additional observations from a re-analysis of the deposited data

How the results depend on the processing

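Differences are on the log2 scale. The median of the synthesis enzymes, -0.032 as deposited, was 0.13 with quantile normalization, 0.24 with the level trend removed, 0.027 with either level filter (the olfactory limit or the level minimum), 0.046 as a mean, -0.13 with median centring and -0.17 with Insig1, Stard4, Srebf2 and Npc1 added. So its sign was not fixed. That of the LXR and efflux genes, -0.69, stayed below 0 at -0.42 with quantile normalization, -0.79 with median centring, -0.34 with the level trend removed, -0.66 with an offset of 16, -0.65 without the receptors and -0.61 as a mean. The difference of medians, 0.66, was 0.55 with quantile normalization, 0.58 with the level trend removed, 0.64 with an offset of 16, 0.72 with either level filter, 0.52 with the 4 genes added and 0.62 without the receptors. The count of lower members, 2, was 0 with quantile normalization, with the level trend removed and with an offset of 16, 3 with median centring (Scap added) and 8 by a 1.5-fold rule. The count of higher members, 2, was 1 with median centring, with an offset of 16 and with the mean of probe sets, 3 with the level trend removed (Hmgcs1 added) and 4 by a 1.5-fold rule. Shares of all genes are not given for median centring, the offset, the mean of probe sets or the 1.5-fold rule. Counts of members under those settings therefore cannot be set against a background. Msmo1 was called higher under every setting run, and Idi1 fell short of 2-fold with median centring, with an offset of 16 and with the mean of probe sets. The cause of these shifts was not tested. No paired analysis was possible because each group has 1 array, and none could be left out for the same reason. Where the IL-27 value lay within the olfactory range, as for Lss, Tm7sf2, Hsd17b7, Dhcr7, Stard4, Elovl6 and Acss2, the size of the difference is not fixed.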
